A study of Mus musculus with 8 samples.

Results

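The replication-dependent histone genes of the mouse were described here by the chromatin found at them in skeletal muscle. They were taken as the protein-coding genes of the GENCODE annotation of build mm10 whose symbol begins with Hist1h, Hist2h, Hist3h or Hist4h, which gave 67 of 21938 protein-coding genes. They code for linker histone H1 (6 genes) and for the core histones H2A (18 genes), H2B (18 genes), H3 (12 genes) and H4 (13 genes). The data came from chromatin immunoprecipitation with sequencing on nuclei of skeletal muscle from wild-type C57/Bl6J mice, with antibodies against the glucocorticoid receptor (GR), H3K27ac, RNA polymerase II (Pol2), H3K4me1, CTCF and H3K4me3. The labels give an age of 10 to 12 weeks and name no treatment, with 10 ng of DNA and 7 PCR cycles for all 8 samples. There was 1 library for each of the 6 antibodies, and there were 2 inputs. Input 1 served for H3K27ac, H3K4me1, Pol2 and GR, whereas Input 2 served for H3K4me3 and CTCF. With no replicate of any library, no difference below was tested against variation between animals, and values are given as descriptions.

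Replication-dependent histone genes are short and mostly without introns, and they lie in clusters. In dividing cells they are transcribed mainly during DNA synthesis, when new nucleosomes are needed, in nuclear bodies where NPAT and the processing factors gather. Their messages end in a stem-loop that binds the protein SLBP, in place of a poly(A) tail. The nuclei of mature muscle fibres no longer divide, and such cells draw on replication-independent histones such as H3.3, from separate genes that make polyadenylated messages. H3K4me3 is found at promoters, H3K27ac at active promoters and enhancers, and H3K4me1 at enhancers and around promoters. Pol2 peaks show where the polymerase was bound. GR is a hormone-activated transcription factor, and CTCF is a DNA-binding protein that organises chromatin loops.

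The stem-loop was searched for in the 150 bases after the stop codon, as a perfect stem of 6 base pairs around 4 loop bases. It is shown because it does not rest on the gene symbol, though a match alone does not make a gene replication-dependent. It was found in 63 of 67 histone genes (94.0%) and in 12 of 21685 other protein-coding genes (0.0553%). It began a median of 31 bases after the stop codon, with a range of 22 to 59 bases. The 6 forms are listed with the number of genes that hold each, and an example with its place in mm10, with the stem in capitals.
Form 1, 41 genes, as at Hist1h1c (chr13:23739512-23739527, plus strand): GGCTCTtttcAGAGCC
Form 2, 9 genes, as at Hist2h2ab (chr3:96220333-96220348, plus strand): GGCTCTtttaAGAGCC
Form 3, 8 genes, as at Hist1h4d (chr13:23581950-23581965, plus strand): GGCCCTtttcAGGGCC
Form 4, 2 genes, as at Hist2h4 (chr3:96262939-96262954, minus strand): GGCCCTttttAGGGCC
Form 5, 2 genes, as at Hist1h4b (chr13:23757366-23757381, plus strand): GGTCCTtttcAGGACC
Form 6, 1 gene, Hist2h2ac (chr3:96220418-96220433, minus strand): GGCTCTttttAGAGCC
The stem-loop was not found in this window at Hist2h2be, Hist1h2an, Hist1h3g and Hist1h4a. Of 13 replication-independent histone genes, H2afx held it.

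The coding sequences showed how alike the members of a class are. The 13 H4 genes had 12 distinct coding sequences and 1 protein of 103 residues, counted with the first methionine. The 12 H3 genes gave 3 proteins, the 18 H2A genes 9, the 18 H2B genes 12 and the 6 H1 genes 6. These counts take the longest annotated translation of each gene, so longer gene models count as proteins of their own. Such a model is that of Hist2h3c1, with 181 residues against 136 for the commonest H3. Hist1h2bq and Hist1h2br have 134 residues and Hist1h2bp has 138, against 126 for the commonest H2B. Alike sequences limit where short reads can be placed, which bears on every value below. Of the 50-base words within 1 kb of a start, a median of 80.7% per gene occurred once in the genome. The share was 0 at Hist1h2bq, Hist1h2ao, Hist1h2ap and Hist1h2br, and under 60% at 10 genes in all. No source used here gives the read length or the authors' handling of reads that map to several places.

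Promoter sequences from RefSeq on GRCm38.p6, the assembly of mm10, cover 250 bases before to 50 bases after a start and were matched for 62 of the 67 genes. The 4 printed here stand for the patterns found below: a broad active H1 promoter, a shared H2A and H2B promoter with Pol2 and H3K27ac, an H4 promoter with Pol2 and GR but no H3K27ac, and a testis form with no peak. Capitals mark, on either strand, the octamer ATTTGCAT, the TATA box TATAAA, the CCAAT box CCAAT and the H1 box AAACACA. The windows are chr13:23738557-23738856, plus strand, for Hist1h1c, chr13:23683910-23684209, minus strand, for Hist1h2ac, chr13:23581318-23581617, plus strand, for Hist1h4d, and chr13:23934107-23934406, minus strand, for Hist1h2ba.
Hist1h1c: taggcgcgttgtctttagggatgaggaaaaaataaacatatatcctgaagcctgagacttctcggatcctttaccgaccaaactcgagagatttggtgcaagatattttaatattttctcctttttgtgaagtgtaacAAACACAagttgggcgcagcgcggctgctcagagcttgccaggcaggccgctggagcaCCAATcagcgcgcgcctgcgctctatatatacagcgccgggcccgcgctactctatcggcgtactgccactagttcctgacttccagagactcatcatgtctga
Hist1h2ac: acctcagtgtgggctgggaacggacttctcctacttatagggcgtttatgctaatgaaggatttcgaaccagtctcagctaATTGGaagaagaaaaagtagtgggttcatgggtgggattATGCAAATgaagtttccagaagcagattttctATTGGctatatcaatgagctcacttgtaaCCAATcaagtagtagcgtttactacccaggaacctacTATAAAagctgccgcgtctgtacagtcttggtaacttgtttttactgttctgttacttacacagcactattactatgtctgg
Hist1h4d: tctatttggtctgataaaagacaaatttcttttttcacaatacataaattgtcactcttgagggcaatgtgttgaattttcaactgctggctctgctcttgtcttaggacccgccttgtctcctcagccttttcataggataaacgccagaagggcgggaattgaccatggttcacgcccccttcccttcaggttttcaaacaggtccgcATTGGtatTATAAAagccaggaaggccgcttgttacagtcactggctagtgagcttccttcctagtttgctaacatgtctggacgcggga
Hist1h2ba: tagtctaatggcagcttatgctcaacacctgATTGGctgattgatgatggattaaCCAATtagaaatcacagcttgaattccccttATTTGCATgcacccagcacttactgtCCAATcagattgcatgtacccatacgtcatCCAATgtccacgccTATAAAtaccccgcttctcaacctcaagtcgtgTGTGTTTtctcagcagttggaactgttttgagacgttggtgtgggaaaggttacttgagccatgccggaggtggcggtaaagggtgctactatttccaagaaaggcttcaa
In the Hist1h1c promoter the H1 box began 112 bases and the CCAAT box 54 bases before the start. The Hist1h2ac promoter held the octamer 130 bases before the start, 3 CCAAT boxes and a TATA box 32 bases before the start. The Hist1h4d promoter held a TATA box at the same distance of 32 bases and 1 CCAAT box at 40 bases. The Hist1h2ba promoter, with no peak of any list, held the octamer, 4 CCAAT boxes, a TATA box and an H1 box.

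Counted on both strands over all 62 matched promoters, the octamer, the site of the POU factor OCT1, stood in 13 (20.97%), against 1.74% of the 32851 promoters in the table. All 13 were H2A or H2B promoters, 7 of 18 and 6 of 16. CCAAT, the core of the NF-Y site, stood in 53 (85.5%), against 37.4% of all promoters. It was in all 50 matched H1, H2A, H2B and H3 promoters and in 3 of 12 H4 promoters. TATAAA stood in 35 (56.5%), against 13.6% of all promoters. The H1 box stood in 9 (14.5%), against 7.18%, and in 5 of 6 H1 promoters. The GC box GGGCGG stood in 23 (37.1%), against 35.7%, with 9 of the 12 H4 promoters among them. The hexamer AGAACA, one arm of a GR site, stood in 12 (19.4%), against 19.0%. None of these 6 motifs contains another on either strand, though their ends can overlap. Genes that face away from each other can have promoter windows that overlap, so 1 stretch of DNA can count for both. Among the 13 with the octamer, the windows overlapped for Hist1h2ae with Hist1h2bg, Hist1h2ah with Hist1h2bk, and Hist1h2ba with Hist1h2aa. A match is a string of letters and not a bound site.

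A peak counted for a gene when it shared at least 1 base with the 1 kb on either side of an annotated transcription start (TSS). H3K4me3 was found at 54 of the 67 histone genes (80.6%, exact Clopper-Pearson 95% interval 69.1% to 89.2%), against 61.5% of all protein-coding genes. H3K4me1 was found at 53 (79.1%, 67.4% to 88.1%), against 65.8%. Pol2 was found at 39 (58.2%, 45.5% to 70.2%), against 47.1%. The intervals of H3K4me3 and H3K4me1 lay above the share of all genes, and that of Pol2 held it. H3K27ac was found at 30 histone genes (44.8%, 32.6% to 57.4%), against 52.4% of all genes. GR was found at 22 (32.8%, 21.8% to 45.4%), against 43.4%. CTCF was found at 2 (2.99%, 0.364% to 10.4%), against 7.54%. The shares of all genes lay inside these 3 intervals. All these shares count any annotated start, and only 4 histone genes have several. With only the outermost start of each gene, the histone shares were the same and those of all genes were lower. The share of all genes for Pol2 was then 43.6%, below the interval. For H3K27ac it was 48.9%, for GR 39.7% and for CTCF 5.62%, still inside theirs. The intervals cover counting error only and treat genes as independent, while neighbouring histone genes share peaks. The windows of the 54 genes with H3K4me3 met 49 distinct peaks, and those of the 22 with GR met 19. Some windows met several peaks, so these counts understate the sharing. With shared windows merged, 45 of 54 promoters had H3K4me3 (83.3%) and 19 of 54 had GR (35.2%). With only the widest 50% of each list, the histone share fell under that of all genes for H3K4me3 (34.3%, against 45.9%), H3K4me1 (41.8%, against 48.7%) and Pol2 (23.9%, against 31.4%). In nuclei from whole muscle, fewer cells with a mark and less of the mark in each cell cannot be told apart.

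**Figure D1:**
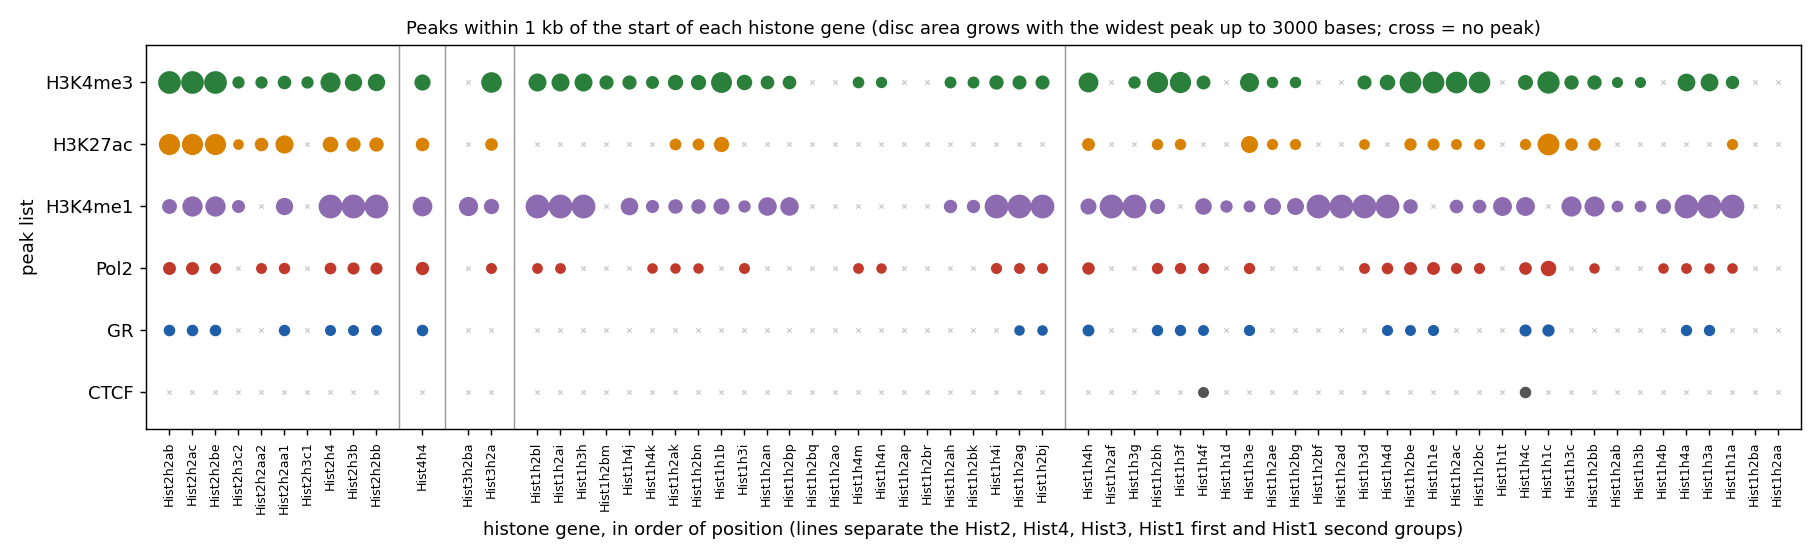
Each column is 1 of the 67 histone genes in order of position and each row 1 of the 6 peak lists. A disc marks a peak within 1 kb of a start, with its area growing with the widest peak, and a cross marks none. Pol2 discs without an H3K27ac disc above them number 14, and CTCF has 2 discs.

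Pol2 was called without H3K27ac at 14 of 67 histone genes (20.9%, exact interval 11.9% to 32.6%), against 0.825% of all protein-coding genes, or 181 genes. Taken over genes with Pol2, the histone share was 14 of 39 (35.9%), against 1.75% of 10322. H4 genes made up 8 of the 14: Hist1h4a, Hist1h4b, Hist1h4d, Hist1h4f, Hist1h4i, Hist1h4k, Hist1h4m and Hist1h4n. The others were the H2B and H2A genes Hist1h2bl, Hist1h2ai, Hist1h2ag and Hist1h2bj, which form 2 divergent pairs, and the H3 genes Hist1h3a and Hist1h3i. All 14 lay in the Hist1 cluster on chromosome 13.

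The peaks at these genes were mostly smaller. The widest Pol2 peak had a median of 154 bases (111 to 259) at the 14 genes, against 226 bases (114 to 927) at the 25 genes with Pol2 and H3K27ac. The H3K4me3 peak had a median fold enrichment over input of 12.9 (5.90 to 22.3) at the 13 of the 14 with such a peak, against 22.3 (6.59 to 48.5) at the 25. The fold is the authors' value for the peak. The share of 50-base words found once was alike, with a median of 82.5% at the 14 genes and 82.9% at the 25. Hist1h4m and Hist1h4n were exceptions among the 14, at 7.02% and 8.04%. At Hist1h4d, whose Pol2 peak (chr13:23581475-23581733, 259 bases) is the widest of the 14, H3K4me3 covered chr13:23581580-23582503 with a fold of 22.3. Hist1h4b had a Pol2 peak of 125 bases across its start and H3K4me1 of 825 bases, with neither H3K4me3 nor H3K27ac. Peak size thus moved with the H3K27ac call, and its part in that call was not tested.

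H3K4me3 without H3K27ac was found at 24 of 67 histone genes (35.8%, exact interval 24.5% to 48.5%), against 9.65% of all genes. Among genes with H3K4me3 this was 24 of 54 (44.4%), against 15.7%. H3K4me3, H3K27ac, Pol2 and GR together were found at 16 of 67 histone genes (23.9%, 14.3% to 35.9%), against 40% of all genes. No peak of any list was found at 6 (8.96%, 3.36% to 18.5%), against 30.4% of all genes. The commonest single combination was all lists but CTCF, at 12 histone genes (17.9%), against 33.0% of all genes.

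GR was found only at histone genes that also had Pol2, in all 22 cases. Among all genes with GR, 93.0% had Pol2. Of the 39 histone genes with Pol2, 22 had GR (56.4%), against 85.7% of all genes with Pol2. The histone genes with GR included 7 H4, 5 H2B, 4 H2A, 4 H3 and 2 H1 genes. GR without H3K27ac was seen at 6 of the 22 (27.3%), against 2.72% of all genes with GR, and the 6 were Hist1h2ag, Hist1h2bj, Hist1h4f, Hist1h4d, Hist1h4a and Hist1h3a. GR peaks here were 123 to 359 bases wide, with a median of 227 bases, against 280 bases at all genes with GR. The peak at Hist1h2ag and Hist1h2bj, of 123 bases, has the lowest width of the whole GR list. The widest, of 359 bases, lay inside the Hist1h1c gene (chr13:23739412-23739770). The H3K4me3 fold had a median of 22.3 at the 22 histone genes with GR and 13.8 at the 32 with H3K4me3 and no GR. The labels name no hormone treatment, so GR occupancy with and without hormone cannot be compared.

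The only CTCF peaks within 1 kb of a histone gene start were at Hist1h4f and Hist1h4c. At Hist1h4f the peak (chr13:23551621-23551805, 185 bases) had a fold of 5.04 and its summit 56 bases before the start, within bases also covered by GR and Pol2. At Hist1h4c the peak (chr13:23697408-23697663, 256 bases) had a fold of 5.63 and its summit 917 bases after the start, past the annotated end of the gene. Both folds were below the median of the whole CTCF list, 7.59, and the 185 bases at Hist1h4f are the lowest width in that list. Across the clusters, with 10 kb on each side, 9 CTCF peaks were called, and the other 7 stood away from histone starts.

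Of the 6 H1 genes, which code for the linker histone, 4 had H3K4me3 and the same number had H3K27ac. Pol2 was at 3 and GR at 2, and no H1 gene had H3K4me3 without H3K27ac. For this and the other classes, the shares of all protein-coding genes were 61.5% for H3K4me3 and 52.4% for H3K27ac. They were 47.1% for Pol2 and 43.4% for GR. Hist1h1c had the broadest marks: H3K4me3 over 2545 bases (chr13:23738243-23740787, fold 41.6), H3K27ac over 2399 bases, the widest of any histone gene, Pol2 peaks up to 927 bases wide and GR. Hist1h1e had the strongest H3K4me3 peak at any histone gene (chr13:23620706-23623105, fold 48.5), with Pol2 of 453 bases and GR. Hist1h1b had H3K4me3 (fold 28.4) and H3K27ac of 869 bases without Pol2 within 1 kb of its start. The summit of that H3K4me3 peak lay 1472 bases after the start, past the end of the gene, and a Pol2 and a GR peak lay under the same H3K4me3 peak there. Hist1h1a had the weakest H3K4me3 of the class (fold 13.8). Hist1h1t, the testis form of H1, had H3K4me1 alone.

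Hist1h1d also had H3K4me1 alone at its GENCODE start, but that start lies 1828 bases from the start codon. Around the start codon it had H3K4me3, H3K27ac and Pol2. Annotation mattered in the other direction for Hist1h2be, whose 3 GENCODE starts lie inside the Hist1h1e gene, 35122 bases or more from its own start codon. The fold of 48.5 credited to Hist1h2be is thus the Hist1h1e peak. Around its own start codon Hist1h2be kept H3K4me3, H3K27ac and Pol2 and had neither H3K4me1 nor GR.

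Of the 18 H2A genes, 13 had H3K4me3, 8 H3K27ac, 9 Pol2 and 4 GR. The 18 H2B genes gave nearly the same counts, 13, 8, 9 and 5. In both classes 3 genes had no peak. The counts of 8 and 9 of 18 lie near the shares of all genes, 52.4% for H3K27ac and 47.1% for Pol2. The median H3K4me3 fold was 18.8 (6.23 to 33.98) for H2A and 15.6 (6.59 to 48.5) for H2B. The strongest H2A promoter was the one shared by Hist2h2ab and Hist2h2ac with the H2B gene Hist2h2be, under 1 H3K4me3 peak of 2675 bases (chr3:96219186-96221860, fold 33.98) and 1 H3K27ac peak of 2253 bases. The gene Bola1 starts within 2 kb of these 3 genes, so its peaks and theirs cannot be told apart. Hist2h2aa1 had the next widest H3K27ac, 1483 bases. At the low end of the fold, Hist1h2ab had H3K4me3 of 191 bases (fold 6.23), H3K4me1 of 277 bases and nothing else. No peak in the whole H3K4me3 list is narrower than 191 bases. Hist1h2bb had an H3K4me3 fold of 6.59 and a Pol2 peak of 121 bases, with 3 H3K27ac peaks and H3K4me1 of 1961 bases.

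All 12 H3 genes had H3K4me3, while 6 had H3K27ac, 6 Pol2 and 4 GR. The 6 of 12 for H3K27ac and for Pol2 lie near the shares of all genes, 52.4% and 47.1%. The median fold was 15.1 (6.23 to 33.8). The highest, at Hist2h3c1, rested on a peak of 358 bases with its middle at position -510.5 relative to the start, and the peak is shared with Hist2h2aa1. Only 21.5% of the 50-base words around Hist2h3c1 occur once in the genome. Hist1h3b, the weakest, shared the 191-base peak of Hist1h2ab.

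Of the 13 H4 genes, which make a single protein, 12 had H3K4me3 and 12 had Pol2, against 6 of 12 H3 genes with Pol2. Only 4 H4 genes had H3K27ac: Hist2h4, Hist4h4, Hist1h4h and Hist1h4c. GR was at 7. Hist4h4, alone on chromosome 6, had the strongest H4 promoter, with an H3K4me3 fold of 40.2 (chr6:136803510-136804551), Pol2 of 509 bases and GR of 253 bases across its start. Hist1h4h followed with a fold of 32.7, 3 H3K27ac peaks and 2 GR peaks, and Hist2h4 with 26.7. The weakest was Hist1h4n, with a fold of 5.90. Hist1h4j was the 1 H4 gene without Pol2 and had an H3K4me3 fold of 7.96. Over the 12 H4 genes with H3K4me3 the fold thus ran between 5.90 and 40.2, against 5.90 to 48.5 over all classes.

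H3K4me3 folds and widths at histone genes lay mostly under those at all marked genes. The strongest peak at each of the 54 genes had a median fold of 15.9 (quartiles 11.4 and 25.6), against 33.5 (19.5 and 45.2) at all 13486 protein-coding genes with a peak. Of the 54, 34 were below the lower quartile of all genes and 2 above the upper quartile. Those 2 are Hist1h1e and Hist1h2be with their single shared peak. Other genes also share a strongest peak, and each counts it, so the 54 folds are not independent. The widest peak had a median of 845 bases at histone genes, against 1317 bases. The same order held for the other lists, with medians of 411 against 696 bases for H3K27ac, 1564 against 2404 for H3K4me1 and 188 against 272 for Pol2. Histone genes with H3K27ac had a median H3K4me3 fold of 22.1, against 12.9 for those without, and those with Pol2 18.8, against 10.2 without. These genes are short, with a median length of 539 bases, and length was not matched in the comparison.

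**Figure D2:**
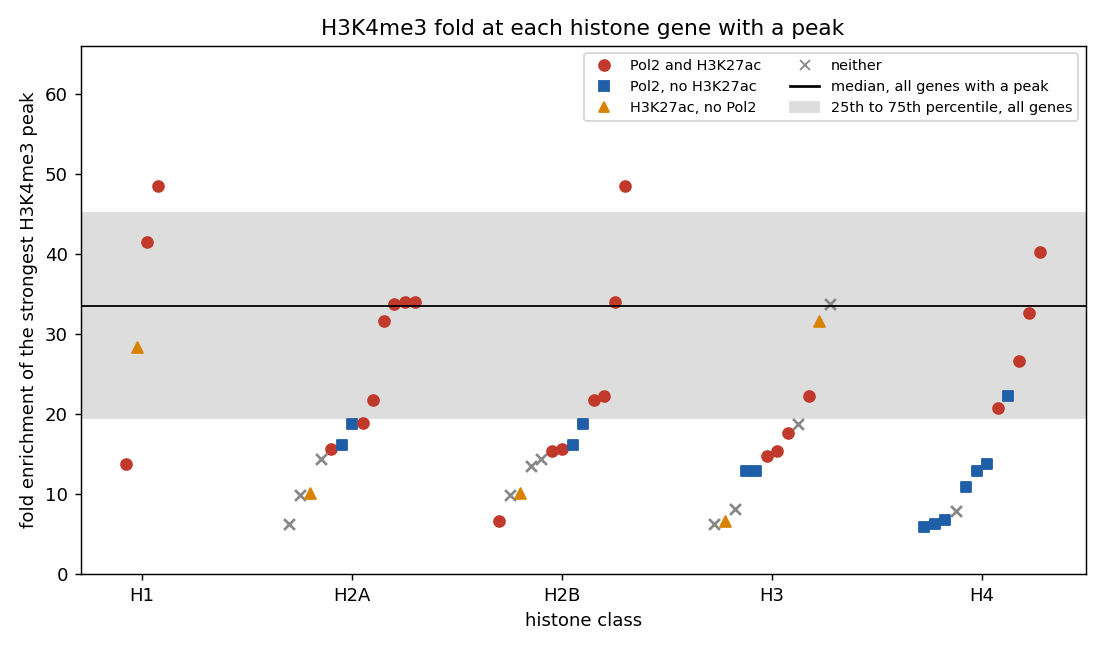
Each point is a histone gene with an H3K4me3 peak, by class along the horizontal axis and by the authors' fold of its strongest peak on the vertical axis. Colour and shape give the Pol2 and H3K27ac calls, and the line and band give the median of 33.5 and the quartiles of all genes with a peak. Most points lie under the band, and the squares, with Pol2 and no H3K27ac, reach no higher than 22.3.

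The genes fall into 5 groups when a stretch of 200 kb or more between the end of one gene and the next is taken as a break. The Hist2 cluster on chromosome 3 holds 10 genes, a single Hist4 gene lies on chromosome 6, 2 Hist3 genes lie on chromosome 11, and the Hist1 cluster on chromosome 13 falls into a first part of 23 genes and a second part of 31. In the Hist2 cluster all 10 genes had H3K4me3, 9 had H3K27ac, 8 Pol2 and 7 GR, and the median H3K4me3 fold was 32.7. In the first part of Hist1, 19 of 23 genes had H3K4me3, 3 had H3K27ac, 11 Pol2 and 2 GR. In the second part 23 of 31 had H3K4me3, 16 H3K27ac, 18 Pol2 and 12 GR. Across all protein-coding genes the shares were 61.5%, 52.4%, 47.1% and 43.4%, in the same order. The median H3K4me3 fold was close in these 2 parts, 14.3 (5.90 to 28.4) in the first and 14.7 (6.23 to 48.5) in the second. Among the 14 genes with Pol2 and no H3K27ac, 9 were in the first part and 5 in the second, and none was in the Hist2 cluster. The median share of words found once was 70.0% in the first part, 86.7% in the second and 72.4% in the Hist2 cluster, and its part in these counts was not tested.

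Taken with 10 kb on each side, the groups cover 892.758 kb and hold 281 peaks of the 6 lists. Pol2 and GR peaks stood mostly at the histone starts: 44 of 51 Pol2 peaks (86.3%) and 19 of 24 GR peaks (79.2%). The share was 73.2% of 56 H3K27ac peaks, 68.1% of 72 H3K4me3 peaks, 50.7% of 69 H3K4me1 peaks and 22.2% of 9 CTCF peaks. These shares use GENCODE starts. The Pol2, H3K4me3 and H3K27ac peaks around the start codons of Hist1h1d and Hist1h2be thus count as away from histone starts. H3K4me3 peaks covered 12.3% of the Hist2 region (chr3:96209865-96280132), 6.58% of the first Hist1 region (chr13:21705763-22053676) and 6.04% of the second (chr13:23521050-23944851). H3K27ac peaks covered 12.3% of the Hist2 region, 0.918% of the first Hist1 region and 2.79% of the second.

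**Figure D3:**
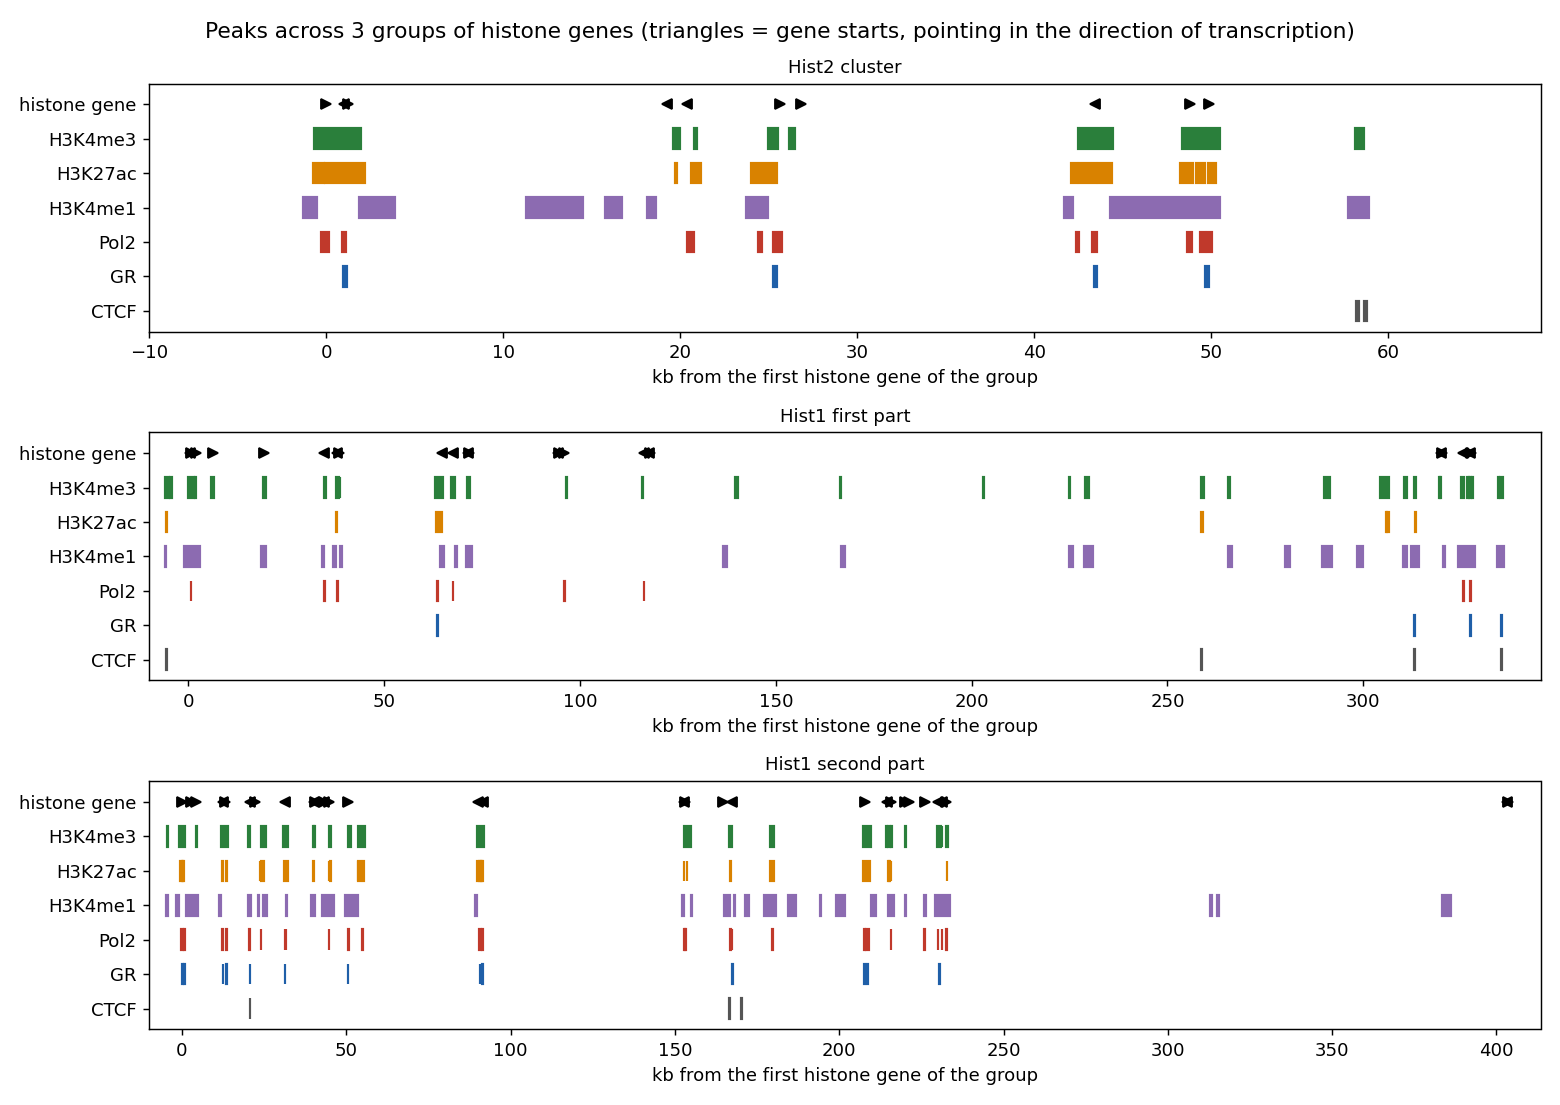
The horizontal axes give kb from the first histone gene of each group, with gene starts as triangles and peaks of the 6 lists as bars in rows. Long stretches without histone genes lie inside both Hist1 parts. H3K27ac has 8 bars in the first Hist1 part and 28 in the second, while H3K4me3 has 33 and 24.

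The other 12 protein-coding genes inside these limits give a local comparison. H3K4me3 was at 54 of the 67 histone genes and at 7 of the 12 neighbours, Pol2 at 39 and at 4, and GR at 22 and at 1. Pol2 without H3K27ac was at 14 histone genes and at none of the 4 neighbours with Pol2. Bola1, H2afj, Trim17 and Hfe, the gene for an iron-regulating membrane protein, carried H3K4me3, H3K27ac and Pol2. Of these, Bola1 and Trim17 start within 2 kb of histone genes, so their peaks may be those of the histone genes. Zfp184, Pom121l2 and Prss16, in the first part of Hist1, had H3K4me3 and H3K4me1 only. Slc17a1, Slc17a2 and Slc17a3, genes of the sodium phosphate transporter family, had no peak, nor did Trim38.

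Peaks at histone genes were placed like those at other genes for Pol2, with the middle of the nearest peak a median of 6.5 bases after the start, against 6 bases. A Pol2 peak covered the start itself at 31 histone genes (46.3%), against 41.5% of all genes. H3K4me3 covered the start at 43 (64.2%), against 57.9%, and the summit of the strongest peak lay a median of 56 bases after it, downstream at 37 of 54. The summit lay more than 1 kb from the start at 7 of the 54, whose fold is thus of a peak with its summit outside that reaches into the window. H3K27ac covered the start at 15 (22.4%), against 40.2%, and GR at 11 (16.4%), against 36.2%. Any annotated start counted here, and only 4 histone genes have several. With 1 start per gene, its outermost, the share for H3K27ac was 22.4% of histone genes, against 22.6% of all genes, and for GR 16.4%, against 28.8%. Coverage by H3K4me3 reached 67.2% of histone genes 50 bases after the start, against a highest value of 53.5% of all genes 200 bases after it. At 2 kb before the start, H3K4me3 covered 13.4% of histone genes, against 1.43% of all genes, and H3K4me1 28.4%, against 13.6%. In the clusters a neighbouring histone promoter can lie there.

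**Figure D4:**
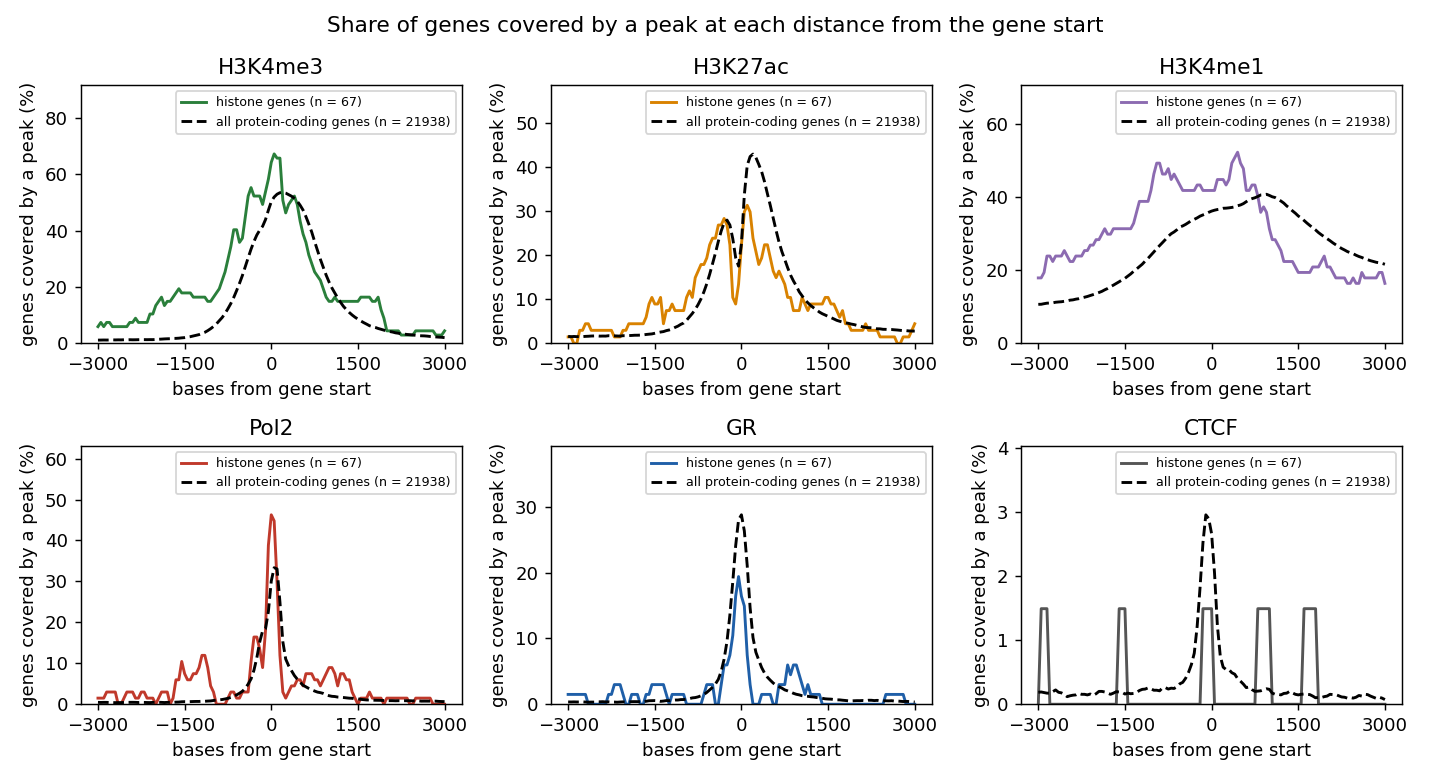
Each panel gives, for 1 list, the percentage of genes covered by a peak (vertical axis) at each distance from the gene start in bases, positive in the direction of transcription. The solid line is the 67 histone genes and the dashed line all 21938 protein-coding genes. The solid line is higher at the start for H3K4me3 (64.2% against 50.3%) and for Pol2 (46.3% against 30.1%), and lower for GR (16.4% against 28.8%).

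Divergent pairs, with starts facing away from each other and 176 to 660 bases apart (median 268), numbered 13, of which 12 joined an H2A and an H2B gene. The pair shared at least 1 peak of H3K4me3 in 9 cases, of H3K4me1 in 9, of Pol2 in 6, of H3K27ac in 5 and of GR in 3. Hist1h2ag and Hist1h2bj, 270 bases apart, shared a Pol2 peak of 169 bases and a GR peak of 123 bases, the lowest GR width. Both lay across the Hist1h2bj start, without H3K27ac. Hist1h2ac and Hist1h2bc, 251 bases apart, shared H3K4me3 (fold 21.8), H3K27ac and Pol2 without GR. Such a peak cannot be credited to either gene. With shared windows merged, the 67 genes make 54 separate promoters.

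The 6 genes with no peak form 3 divergent pairs. In 2 of them, Hist1h2bq with Hist1h2ao and Hist1h2ap with Hist1h2br, none of the 50-base words occurs once in the genome, so a read of that length from there has no single place in the genome. The H4 genes beside them, Hist1h4m and Hist1h4n, each had a small H3K4me3 peak and a Pol2 peak (273 and 151 bases at Hist1h4m, 221 and 111 bases at Hist1h4n). The third pair, Hist1h2ba and Hist1h2aa, are the testis forms of H2B and H2A, and 92.9% of the words around both occur once. Around Hist1h1t, the testis form of H1, all of the words occur once (100%).

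The tissue label was checked with markers. All 8 muscle fibre markers, among them the skeletal actin gene Acta1 and the creatine kinase gene Ckm, had Pol2 and H3K27ac, and 7 had GR. Their widest Pol2 peaks had a median of 8113.5 bases, where those at histone genes had 188. H3K4me3 was at 7 of the 8, with a median fold of 14.4 (8.12 to 32.3), where histone genes had 15.9. A fold under the 33.5 of all genes was thus not particular to histone genes. Of 3 immune markers none had H3K4me3 and 1, Cd68, had a Pol2 peak, and of 3 satellite cell markers 1, Pax7, had H3K4me3 (fold 8.83) and none had Pol2. The 3 fibro-adipogenic markers, such as the collagen gene Col1a1, all had H3K4me3, H3K27ac and Pol2, and the 3 endothelial markers had H3K4me3, with Pol2 at 1. All 5 markers of cycling cells had H3K4me3, while 1 had Pol2 (Ccnb1, 163 bases) and 1 H3K27ac (Rrm2). Marks at genes of cells other than fibres were thus present, and the part of such cells in the peaks at histone genes was not tested.

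Replication-independent histone genes, which supply nucleosomes outside DNA synthesis, had a higher share with H3K27ac and GR in these libraries. H3K27ac was at 30 of 67 replication-dependent genes (44.8%) and at 10 of 13 replication-independent ones (76.9%), against 52.4% of all genes. GR was at 22 (32.8%) and at 9 (69.2%), against 43.4%. Pol2 was closer, at 39 (58.2%) and at 9 (69.2%), against 47.1%. The Pol2 interval of the replication-dependent genes, 45.5% to 70.2%, held the share of the 13. The median H3K4me3 fold was 15.9 at the replication-dependent genes and 41.0 at the replication-independent ones. H3f3b, which codes for H3.3, had a fold of 62.9 with H3K27ac, Pol2 and GR, and H2afz, which codes for H2A.Z, had 54.5. H2afx, the gene whose message can end in the stem-loop, had 23.2. No replication-independent histone gene had Pol2 without H3K27ac. The germ cell linker histone genes H1foo and H1fnt had no H3K4me3.

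A list of factors linked to histone transcription or histone messages, some with general roles, was nearly all marked. Of these 17 genes, 17 had H3K4me3, 16 Pol2, 16 H3K27ac and 14 GR, with a median H3K4me3 fold of 40.2. The shares of all protein-coding genes were 61.5% for H3K4me3, 47.1% for Pol2, 52.4% for H3K27ac and 43.4% for GR. Npat, which codes for the factor that gathers at histone loci, had a fold of 45.6 and Slbp, for the stem-loop binding protein, 36.9, both with Pol2 and GR. Of 16 histone chaperone genes, 16 had H3K4me3, 13 Pol2 and 14 GR. Of 30 replication and proliferation genes, which like the histone genes are used mainly in dividing cells, 30 had H3K4me3, 16 H3K27ac, 13 Pol2 and 22 GR. Their median H3K4me3 fold of 24.0 lay between those of the replication-dependent and replication-independent histones. Pol2 without H3K27ac occurred at 14 of the 39 histone genes with Pol2 (35.9%). In the replication set it occurred at 1 of the 13 genes with Pol2 (7.69%), Ccnb1. Further combinations without H3K27ac were closer between the sets. H3K4me3 without it was at 24 of 54 histone genes with H3K4me3 (44.4%) and at 14 of 30 replication genes (46.7%). GR without it was at 6 of 22 histone genes with GR (27.3%) and at 8 of 22 replication genes with GR (36.4%). GR was at 22 of 67 histone genes and at 22 of 30 replication genes.

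**Figure D5:**
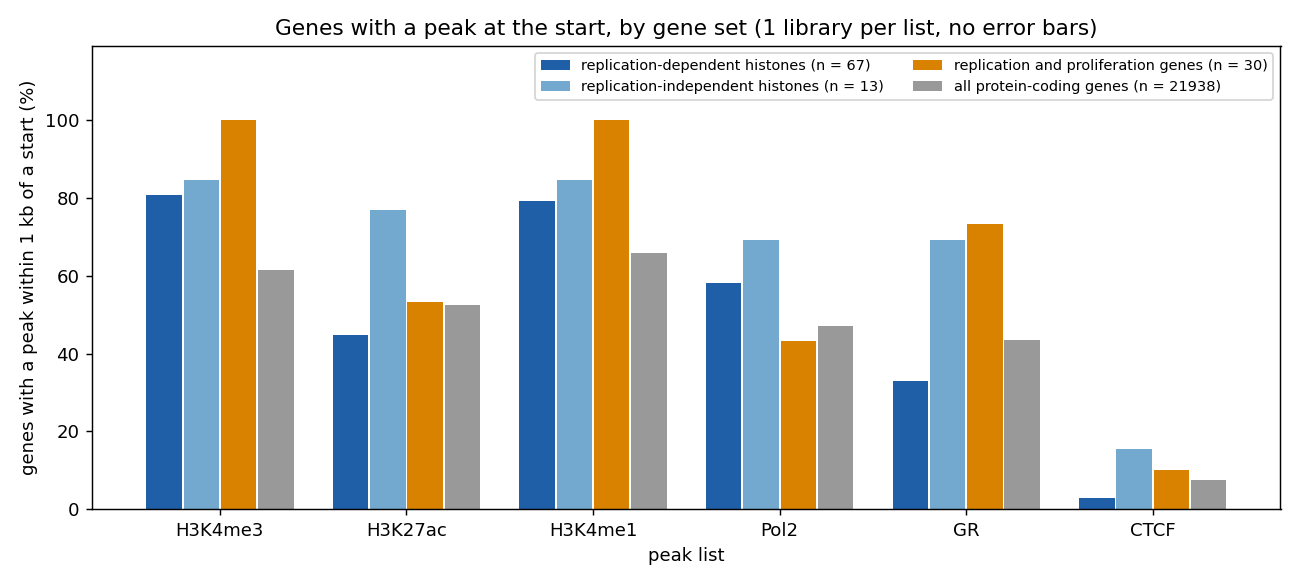
Bars give the percentage of genes (vertical axis) with a peak within 1 kb of a start for each of the 6 lists (horizontal axis), for the 67 replication-dependent histone genes, 13 replication-independent histone genes, 30 replication and proliferation genes and all 21938 protein-coding genes. Each list is 1 library, so no error bar is drawn. Replication-dependent histones are lowest of the 4 sets for H3K27ac (44.8%), GR (32.8%) and CTCF (2.99%).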

How the data were processed

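Per the labels' protocols, chromatin of muscle nuclei was immunoprecipitated and sequenced. The submitters' processing notes list mm10 as the build, and as tools Bowtie 1.0.0, bcl2fastq 2.17.1.14 and MACS2 without a version, with no roles or thresholds. The deposited files are peak lists, 1 per antibody, without a header row. The deposited start and end positions were used for all 6 lists. For CTCF and H3K4me3 the authors also deposited summits, an integer score, a fold (ratio) of enrichment over control and the −log10 q-value of each peak. Only the fold was used in comparisons. No source used here gives the library depths.

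Peaks off the mitochondrial genome numbered 19811 for H3K4me3, 44151 for H3K27ac, 75523 for H3K4me1, 20192 for Pol2, 23188 for GR and 6526 for CTCF. They were set against GENCODE M21 starts on the same build with Python 3.11.15, NumPy 2.4.6 and SciPy 1.17.1, and the overlap and sequence searches were tested on simulated data. Intervals are exact Clopper-Pearson intervals at 95%, and they do not cover variation between animals or duplicate PCR reads. The closing section gives the alternatives tried.

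The genes, comparison lists, motifs and settings were chosen with earlier results of these data known. Genes named by rule are those with Pol2 or GR (up to 25, by H3K4me3 fold), the strongest and weakest H3K4me3 gene and the first gene without a peak in each class, the 3 widest H3K27ac and all with CTCF, which gave 34 genes. Further genes were named with their values in view.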

Additional observations from a re-analysis of the deposited data

How the results depend on the processing

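Of 93 alternative values, 78 stayed within 1.5 times the reported count and 15 did not. With only the widest 50% of each list, the share of histone genes with a peak was 34.3% for H3K4me3, 25.4% for H3K27ac, 41.8% for H3K4me1, 23.9% for Pol2, 17.9% for GR and 1.49% for CTCF. With a fold at or above the list's median it was 29.9% for H3K4me3 and 0 for CTCF. Counting each peak for its nearest start only gave 50.7% for H3K4me1. CTCF gave 1.49% within 500 bases and 5.97% within 2 kb. Peaks covering the start itself, an alternative chosen after seeing the data, gave 22.4% for H3K27ac, 41.8% for H3K4me1, 16.4% for GR and 1.49% for CTCF.

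The histone genes then lay on the other side of all genes for H3K4me3 with the widest peaks (34.3%, against 45.9% of all genes) and with the stronger folds (29.9%, against 46.3%), for Pol2 with the widest peaks (23.9%, against 31.4%), and for H3K4me1 under all 3 settings above. Around start codons, also chosen after seeing the data, H3K27ac was at 46.3% of histone genes against 39.4% of all genes, and GR at 31.3% against 30.9%. The cause was not tested. Pol2 without H3K27ac stayed between 19.4% and 28.4%, and H3K4me3 without H3K27ac between 32.8% and 41.8%, in the alternatives run for them.

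No paired analysis was possible because each antibody has 1 library, and leaving out a library leaves no list to count. The read depth, the peak thresholds and the placing of repeated reads are unknown, so an absent peak is not shown to be an absent mark.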
